A study of Homo sapiens with 24 samples.

Results

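The genes examined here were 9 members of the EGFR (ERBB) family of growth factors and receptors, taken by symbol from the count files: the ligands *AREG*, *EREG*, *HBEGF*, *TGFA*, *BTC* and *NRG1* and the receptors *EGFR*, *ERBB2* and *ERBB3*. All 9 had a row among the 25702 gene identifiers of each file. Of these, 7 passed the filter on low counts and were tested among 13356 genes, and 2, *BTC* and *ERBB3*, did not. The genes were taken by name, with no threshold on a measured value.

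The ligands of this family are made as membrane proteins, from which metalloproteases release the soluble factor. Amphiregulin, epiregulin, HB-EGF, TGF-α and betacellulin bind EGFR, and epiregulin, HB-EGF and betacellulin also bind ERBB4, while neuregulins bind ERBB3 and ERBB4. ERBB2 has no known soluble ligand and acts as the favoured dimer partner of the other receptors, and ERBB3 has little kinase activity of its own. The receptors signal through RAS, and several of the ligand genes are in turn known targets of RAS and MAP kinase signalling and belong to the factors that senescent fibroblasts secrete.

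The data were mRNA counts of 24 cultures of IMR90 cells, a line of human lung fibroblasts, at passage 23 to 28, in 4 groups of 6 biological replicates. All cells, controls included, carried a retroviral ER:HRAS G12V, a fusion of oncogenic RAS and an oestrogen receptor domain that stays inactive until 4-hydroxytamoxifen (4OHT) is added. Growing cells also carried the empty MSCV vector and received no agent, and RIS (RAS-induced senescence) cells had the same vector and 6 days of 4OHT. The shHMGA1 cells carried MSCV miR30 shHMGA1, a hairpin against the chromatin protein gene *HMGA1*, without 4OHT, and RIS+shHMGA1 cells carried the hairpin and had 6 days of 4OHT.

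Between 8698070 and 23103424 reads were counted per sample (median 10604084). *HMGA1* lay between 639 and 861 CPM (reads scaled to a common library size, normalised by TMM) in the 12 vector samples and between 54.4 and 262 CPM in the 12 hairpin samples, without overlap. The hairpin samples were not uniform. In shHMGA1 samples replicates 5 and 6 had 54.4 to 58.1 CPM, against 98.7 to 143 CPM in replicates 1 to 4. In RIS+shHMGA1 samples these values were 60.0 to 75.1 CPM against 197 to 262 CPM. All 10 fibroblast markers passed the filter in these samples. Of 8 epithelial markers only *CLDN4* did, with up to 116 reads in a sample. *KRT19* had up to 23 and *EPCAM* up to 14 reads, and *CDH1*, *KRT5*, *KRT14*, *ESRP1* and *SFTPC* at most 2. Of the 4 endothelial markers *TEK* passed, and 0 of the 4 leukocyte markers did.

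Both growing replicate 4 and RIS replicate 2 stood apart from the other 5 libraries of their label. *IL1A*, a cytokine of senescent cells, had 542 CPM in growing replicate 4, against 18.3 to 39.9 CPM in the other growing samples, and 24.9 CPM in RIS replicate 2, against 407 to 553 CPM in the other RIS samples. *MKI67*, a marker of proliferation, had 3.73 CPM in growing replicate 4 (others 87.6 to 152 CPM) and 141 CPM in RIS replicate 2 (others 3.16 to 6.85 CPM). In these genes each of the libraries thus lay within the range of the other label. RIS replicate 2 also lay within the other growing samples in the cytokine genes *IL6* and *CXCL8* and the cell division genes *CCNB1* and *TOP2A*. Growing replicate 4 lay within the other RIS samples in *TOP2A* (16.6 against 15.8 to 27.8 CPM). It lay above them in *CXCL8* (50420.9 against 11196.5 to 34386.2 CPM), *IL6* (3396 against 1564 to 2718 CPM) and *CCNB1* (39.7 against 20.6 to 35.2 CPM). On the first principal component (73.9% of the variance) growing replicate 4 was at 77.31, against -84.31 to -57.2 in the other growing and 16.85 to 62.07 in the other RIS samples, and RIS replicate 2 was at -77.06. Whether these labels were exchanged was not tested, and each value with all samples that uses growing or RIS samples depends on it. Both libraries stayed in their labelled groups, and each comparison is given with and without them. The choice to leave them out was made after the data were seen.

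The members lie on several chromosomes, and *EREG* and *AREG* are neighbours. In GRCh37, the build of the counts (hg19), *EREG* (Entrez 2069) spans chr4:75230862-75254466, *AREG* (374) chr4:75310853-75320722 and *BTC* (685) chr4:75669969-75719733. *HBEGF* (1839) spans chr5:139712428-139726188, *TGFA* (7039) chr2:70674416-70781325, *EGFR* (1956) chr7:55086710-55279321, *ERBB2* (2064) chr17:37844167-37886679 and *ERBB3* (2065) chr12:56470583-56497289. *NRG1* is Entrez 3084.

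Some of these counts are shared with other annotated genes. GRCh37 holds a near-identical copy of *AREG*, named *AREGB*, at chr4:75480629-75490486. The 1234 exonic bases of *AREG* differ from the copy at 1 base (99.92% identity), and 96.6% of all 50-base windows within its exons also occur in the copy. Reads of low mapping quality were removed before counting, but how many reads matching both places this left is not given in the sources used here, so the level of *AREG* is uncertain and its values compare samples, not genes. The antisense gene *EGFR-AS1* lies within *EGFR* and had counts of 2.80 to 5.47% of those of *EGFR*. *PGAP3* and *MIEN1* overlap the annotated ends of *ERBB2* on the opposite strand. The library kit keeps strand, but the strand setting of the counting is not given, so reads of these pairs cannot be told apart.

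The 250 bases before the RefSeq start (GRCh38.p14) are shown for *EREG* and *AREG*, the neighbouring ligand genes, and for *ERBB2*, whose medians were lower in the 4OHT groups where those of the ligand pair were higher. Capitals mark letters of motifs searched: TATAAA on the gene's strand, the cyclic AMP response element TGACGTCA, the AP-1 sites TGAGTCA and TGACTCA, and the ETS site CCGGAAGT, the last 4 on both strands. These motifs do not overlap in the windows shown.
EREG, chr4:74364895-74365144, plus strand: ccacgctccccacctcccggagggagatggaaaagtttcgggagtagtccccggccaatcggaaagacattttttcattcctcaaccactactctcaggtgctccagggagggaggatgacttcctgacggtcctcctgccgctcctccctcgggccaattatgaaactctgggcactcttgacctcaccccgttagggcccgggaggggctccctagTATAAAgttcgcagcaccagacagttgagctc
AREG, chr4:74444886-74445135, plus strand: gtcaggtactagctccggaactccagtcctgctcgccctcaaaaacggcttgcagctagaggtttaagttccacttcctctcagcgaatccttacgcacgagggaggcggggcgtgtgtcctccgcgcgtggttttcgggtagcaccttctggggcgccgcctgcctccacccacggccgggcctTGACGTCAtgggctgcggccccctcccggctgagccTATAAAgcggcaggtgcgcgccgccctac
ERBB2, chr17:39687844-39688093, plus strand: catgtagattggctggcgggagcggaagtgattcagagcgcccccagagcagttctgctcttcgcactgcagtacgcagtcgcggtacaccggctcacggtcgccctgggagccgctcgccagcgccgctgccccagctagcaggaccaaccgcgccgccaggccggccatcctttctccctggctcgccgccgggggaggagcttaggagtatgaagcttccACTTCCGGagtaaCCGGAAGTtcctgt

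The ligand windows shown both hold TATAAA, at -32 to -27 from the start in *EREG* and at -29 to -24 in *AREG*. *AREG* also holds the full cyclic AMP response element at -65 to -58. The *ERBB2* window holds no TATAAA and has the ETS letters on the opposite strand at -27 to -20 and on its own strand at -14 to -7. This window lies before a RefSeq start that was not matched to the canonical transcript used for the levels. *PGAP3* and *MIEN1* overlap *ERBB2* on the opposite strand, and whether either reaches into this window was not assessed. The windows of *HBEGF*, *TGFA*, *BTC* and *EGFR*, not shown, were searched in the same way. Those of *HBEGF*, *TGFA* and *BTC* held none of these motifs. An alternative *EGFR* window held TATAAA at -146 to -141 and -36 to -31 and AP-1 sites at -232 to -226 and -136 to -130. Among 35116 promoter windows of the same length, 6.8% held TATAAA, 1.65% the cyclic AMP response element, 4.2% an AP-1 site and 3.42% the ETS site. These matches describe the letters only.

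*EREG*, which encodes epiregulin, had the highest median CPM per kilobase of transcript in each group among the members other than *AREG*. In growing and RIS samples it overlapped *HBEGF*, *EGFR* and *NRG1* in range, and in both hairpin groups it overlapped none of the members compared. Without RIS replicate 2 it overlapped none of them in RIS samples either. Without growing replicate 4 it still overlapped *HBEGF* and *EGFR* in growing samples, but not *NRG1*. In growing samples it had 53.6 CPM at the lowest, a median of 83.9 CPM and 511 CPM at the highest, and in RIS samples 71.5, 551 and 740 CPM. In shHMGA1 samples the lowest, median and highest were 115, 146 and 158 CPM, and in RIS+shHMGA1 samples 469, 507 and 629 CPM. The highest growing value was replicate 4, with the next at 125 CPM, and the lowest RIS value was replicate 2, with the next at 514 CPM. Apart from these libraries every 4OHT sample lay above every untreated sample, and between the hairpin groups there was no overlap.

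**Figure D1:**
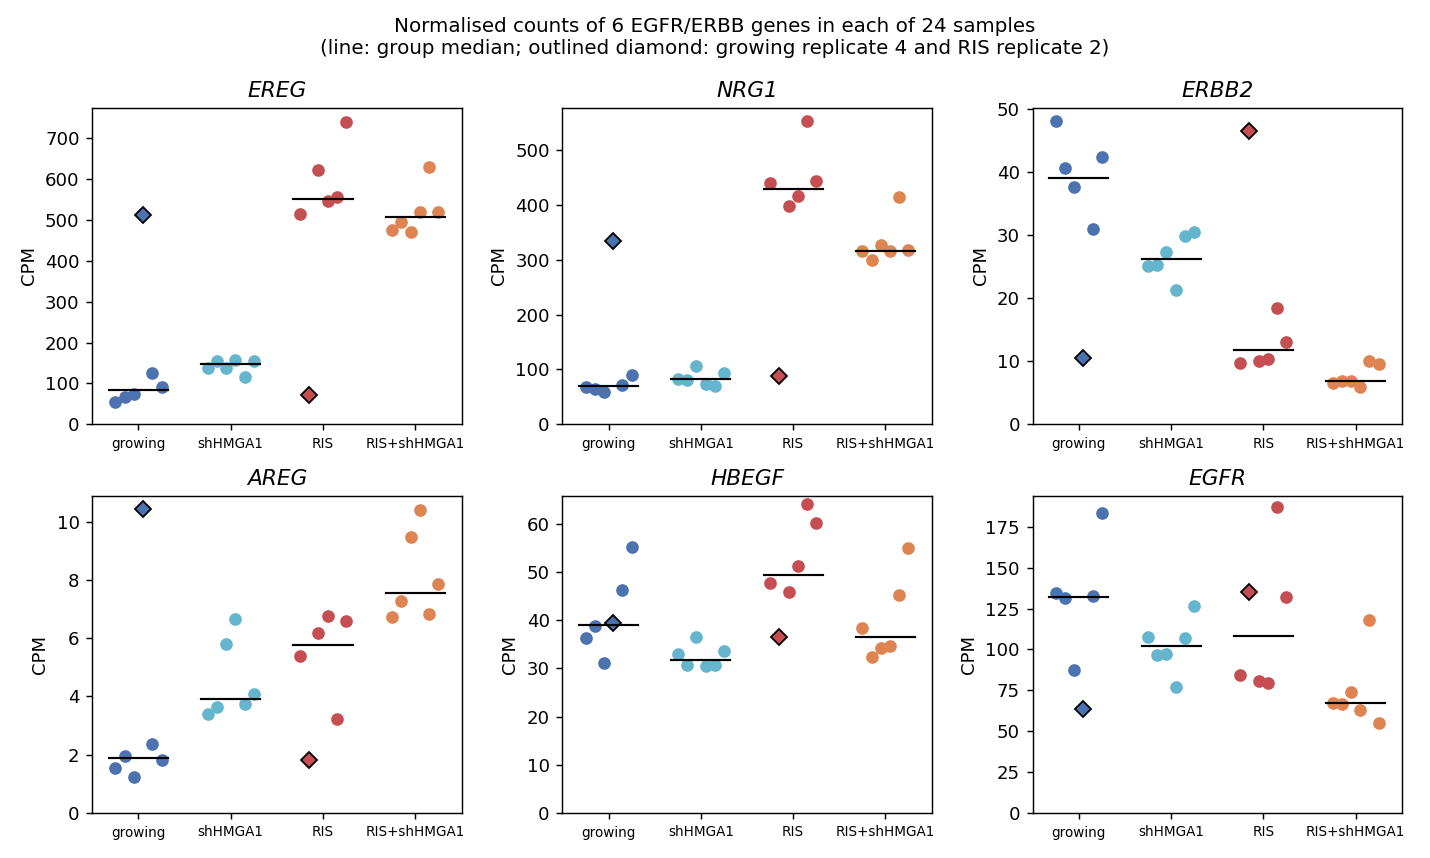
CPM (vertical axes, starting at 0) of 6 members in the 6 samples of each group (horizontal axes). Points are samples in order of replicate number, lines are group medians, and outlined diamonds are growing replicate 4 and RIS replicate 2. *EREG* and *NRG1* are high and *ERBB2* low in the 4OHT groups, except in those outlined libraries, whereas the *HBEGF* and *EGFR* groups overlap.

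*NRG1*, which encodes neuregulin 1, followed the same order. It had 59.0, 69.6 and 333 CPM (lowest, median and highest) in growing samples, 69.3, 82.2 and 106 CPM in shHMGA1 samples, 88.3, 428 and 552 CPM in RIS samples and 299, 316 and 414 CPM in RIS+shHMGA1 samples. Again growing replicate 4 was the highest of its group (next 89.4 CPM) and RIS replicate 2 the lowest (next 397 CPM), and the hairpin groups did not overlap. Outside these libraries the RIS samples were at 397 CPM and above, and 5 of the 6 RIS+shHMGA1 samples were at 326 CPM or below.

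*AREG*, which encodes amphiregulin, was counted with 16 to 109 reads per sample, and its level against the other genes is uncertain because of its copy. It had 1.22, 1.88 and 10.4 CPM in growing samples, 3.40, 3.91 and 6.66 CPM in shHMGA1 samples, 1.81, 5.78 and 6.76 CPM in RIS samples and 6.73, 7.56 and 10.4 CPM in RIS+shHMGA1 samples. The highest growing sample was replicate 4, with the next at 2.35 CPM, and the lowest RIS sample was replicate 2, with the next at 3.22 CPM. Apart from growing replicate 4, every shHMGA1 sample lay above every growing sample. The RIS and shHMGA1 groups overlapped.

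*HBEGF*, which encodes the heparin-binding ligand of EGFR, varied little. Its lowest, median and highest values were 31.1, 39.1 and 55.2 CPM in growing samples, 30.4, 31.8 and 36.6 CPM in shHMGA1 samples, 36.5, 49.5 and 64.1 CPM in RIS samples and 32.4, 36.6 and 55.1 CPM in RIS+shHMGA1 samples. All neighbouring groups in the order of medians overlapped. Replicates 5 and 6 were higher than replicates 1 to 4 in the growing (46.2 to 55.2 against 31.1 to 39.4 CPM), RIS (60.2 to 64.1 against 36.5 to 51.3 CPM) and RIS+shHMGA1 groups (45.3 to 55.1 against 32.4 to 38.5 CPM). In shHMGA1 samples they were not (30.6 to 33.7 against 30.4 to 36.6 CPM).

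*TGFA*, which encodes TGF-α, was near the limit of detection, with at most 27 reads in a sample. In each group replicates 5 and 6 had more reads than replicates 1 to 4: 21 to 27 against 2 to 7 in growing, 5 to 11 against 0 to 3 in shHMGA1, 23 to 25 against 0 to 15 in RIS and 13 to 19 against 1 to 5 in RIS+shHMGA1 samples. The labels do not say what the replicate numbers stand for. The median was 0.682 CPM in growing, 0.168 CPM in shHMGA1, 1.26 CPM in RIS and 0.563 CPM in RIS+shHMGA1 samples, and all groups overlapped.

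**Figure D2:**
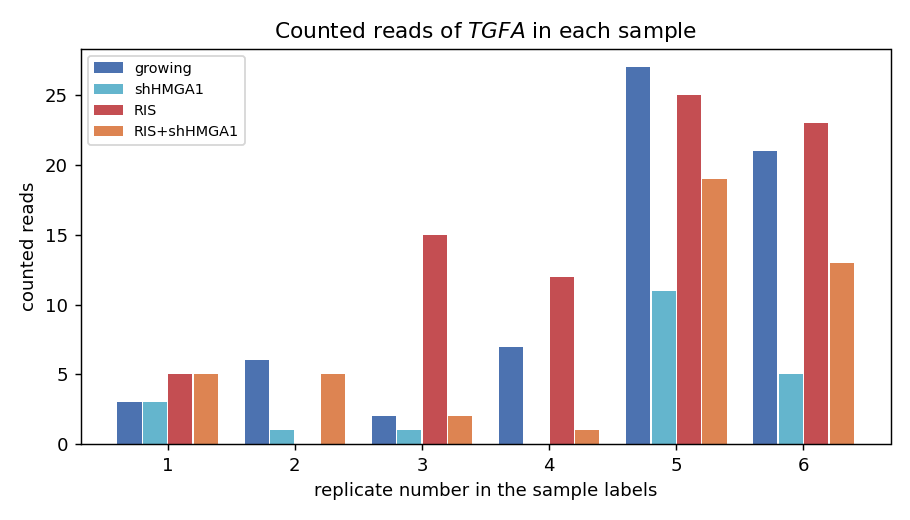
Counted reads of *TGFA* (vertical axis) in each sample, by the replicate number of the labels (horizontal axis) and group (colour). Replicates 5 and 6 hold 5 to 27 reads and replicates 1 to 4 hold 0 to 15.

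*BTC*, which encodes betacellulin, had 0 to 2 reads and *ERBB3* 0 to 4 reads in any sample, and neither was tested. A count of 0 allows up to 3 reads, which is 0.13 to 0.345 CPM at the depth of these libraries, counting error only. Differences between groups were therefore not assessed for these 2 genes.

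Among the receptors, *ERBB2* had lower medians in the 4OHT groups, where those of *EREG* and *NRG1* were higher. It had 10.5, 39.2 and 48.2 CPM (lowest, median and highest) in growing samples, 21.3, 26.3 and 30.5 CPM in shHMGA1 samples, 9.81, 11.8 and 46.6 CPM in RIS samples and 6.00, 6.87 and 10.1 CPM in RIS+shHMGA1 samples. Here growing replicate 4 was the lowest of its group (next 31.0 CPM) and RIS replicate 2 the highest (next 18.5 CPM). Without them the growing samples lay above all shHMGA1 samples, these above all RIS samples, and RIS and RIS+shHMGA1 samples overlapped between 9.81 and 10.1 CPM.

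*EGFR*, the receptor of most of these ligands, had 63.8, 132 and 184 CPM in growing samples, 77.2, 102 and 127 CPM in shHMGA1 samples, 79.6, 108 and 187 CPM in RIS samples and 55.1, 67.0 and 118 CPM in RIS+shHMGA1 samples. All neighbouring groups overlapped. The lowest growing sample was again replicate 4, and the highest samples of the RIS and RIS+shHMGA1 groups were both replicate 5.

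The levels of the genes were compared with each other as median CPM per kilobase of the canonical GENCODE transcript. *AREG* is left out of this order because of its copy. In growing samples the order was *EREG* (18.2), *HBEGF* (16.6), *EGFR* (13.3), *ERBB2* (8.60), *NRG1* (5.81) and *TGFA* (0.166), followed by *ERBB3* (0.0146) and *BTC* (0). From *EREG* to *NRG1* each gene overlapped the next in range, so these neighbours did not differ beyond their spread. With all samples most genes farther apart overlapped as well: *EREG* overlapped *EGFR*, and *NRG1* (4.925 to 27.78) overlapped *EREG*, *HBEGF* and *EGFR*. The upper end of *NRG1* was growing replicate 4 (333 CPM, next 89.4 CPM). Without this library *NRG1* lay below all growing samples of *EREG*, *HBEGF* and *EGFR*, while *EREG* still overlapped *EGFR*. With all samples only *ERBB2* (at most 10.58) lay below all growing samples of *EREG* (at least 11.61) and *HBEGF* (at least 13.18). In RIS+shHMGA1 samples the order was *EREG* (110), *NRG1* (26.4), *HBEGF* (15.5), *EGFR* (6.77) and *ERBB2* (1.51), and no neighbours among these overlapped. *NRG1* has many transcripts, and its value per kilobase rests on the 11983-base canonical one.

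The first comparison asked what 6 days of 4OHT changed in vector cells. With all samples, the fold changes (log2, RIS against growing) were 1.77 for *NRG1* (SE 0.38, adjusted p = 0.0148) and 1.72 for *EREG* (SE 0.47, adjusted p = 0.0217) by the quasi-likelihood test of edgeR, adjusted over all genes tested. *ERBB2* had -0.96 (SE 0.34, adjusted p = 0.0548 in edgeR) and *AREG* 0.71 (SE 0.41, adjusted p = 0.232). A gene was called where its FDR was below 0.01 and its log2 fold change exceeded 0.58 in size, and 0 of the 7 tested members passed, as did 0% of all genes tested. The groups overlapped in 7 of 7 members, where 0.367% of all genes tested had groups that did not. At an unadjusted p under 0.05, 4 of the 7 members passed, beside 33% of all genes tested, and DESeq2 called 2, *EREG* and *NRG1*, beside 6.21%. *HBEGF* (0.31), *TGFA* (0.41) and *EGFR* (-0.07) had adjusted p-values of 0.151, 0.694 and 0.851 in edgeR.

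Without growing replicate 4 and RIS replicate 2, edgeR called 4 of the 7 members in the same comparison, beside 39.7% of all genes tested. *EREG* rose by 2.85 (SE 0.17, adjusted p = 1.25e-12), *NRG1* by 2.68 (SE 0.14, adjusted p = 6.25e-14) and *AREG* by 1.67 (SE 0.23, adjusted p = 1.44e-06), and *ERBB2* fell by 1.69 (SE 0.17, adjusted p = 8.51e-09). *HBEGF* had 0.38 (adjusted p = 0.0309) and *EGFR* -0.25 (adjusted p = 0.35). The same 4 were called when growing replicate 4 alone was left out, and all but *AREG* when RIS replicate 2 alone was. Leaving out replicate number 2 or 4 from all groups gave 3 calls. The shares of all genes called in these fits with fewer omissions are not given here.

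The second comparison, RIS+shHMGA1 against shHMGA1, asked the same in hairpin cells and shared no sample with the first. *NRG1* rose by 1.97 on the log2 scale (SE 0.39, adjusted p = 0.000423 in edgeR) and *EREG* by 1.85 (SE 0.47, adjusted p = 0.00225), and *ERBB2* fell by 1.79 (SE 0.35, adjusted p = 0.000417). These 3 of the 7 tested members were called, beside 39.1% of all genes tested, a share near that of the members. By direction, 2 of 7 rose, beside 19.6% of all genes tested, and 1 of 7 fell, beside 19.5%. In each of these genes the groups did not overlap, as also for *AREG*, so that 4 of the 7 members had non-overlapping groups against 43.4% of all genes tested. The ratio of the medians was 3.85 for *NRG1*, 3.46 for *EREG*, 1.93 for *AREG* and 0.261 for *ERBB2*.

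The other members of that comparison were not called. *AREG* had a log2 fold change of 0.83 (SE 0.40, adjusted p = 0.0696 in edgeR), and was called without growing replicate 4 (adjusted p = 0.00488), a sample outside this comparison that enters the shared estimate of the spread. Without both libraries that stood apart, 4 of 7 members were called, *AREG* among them, beside 44.4% of all genes tested. *HBEGF* had 0.30 (95% interval -0.01 to 0.61), *EGFR* -0.46 (-0.96 to 0.03) and *TGFA* 1.54 (-0.24 to 3.32). The call of *EREG* was lost when replicate number 3 (adjusted p = 0.0105) or 5 (adjusted p = 0.0138) was left out of all groups.

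**Figure D3:**
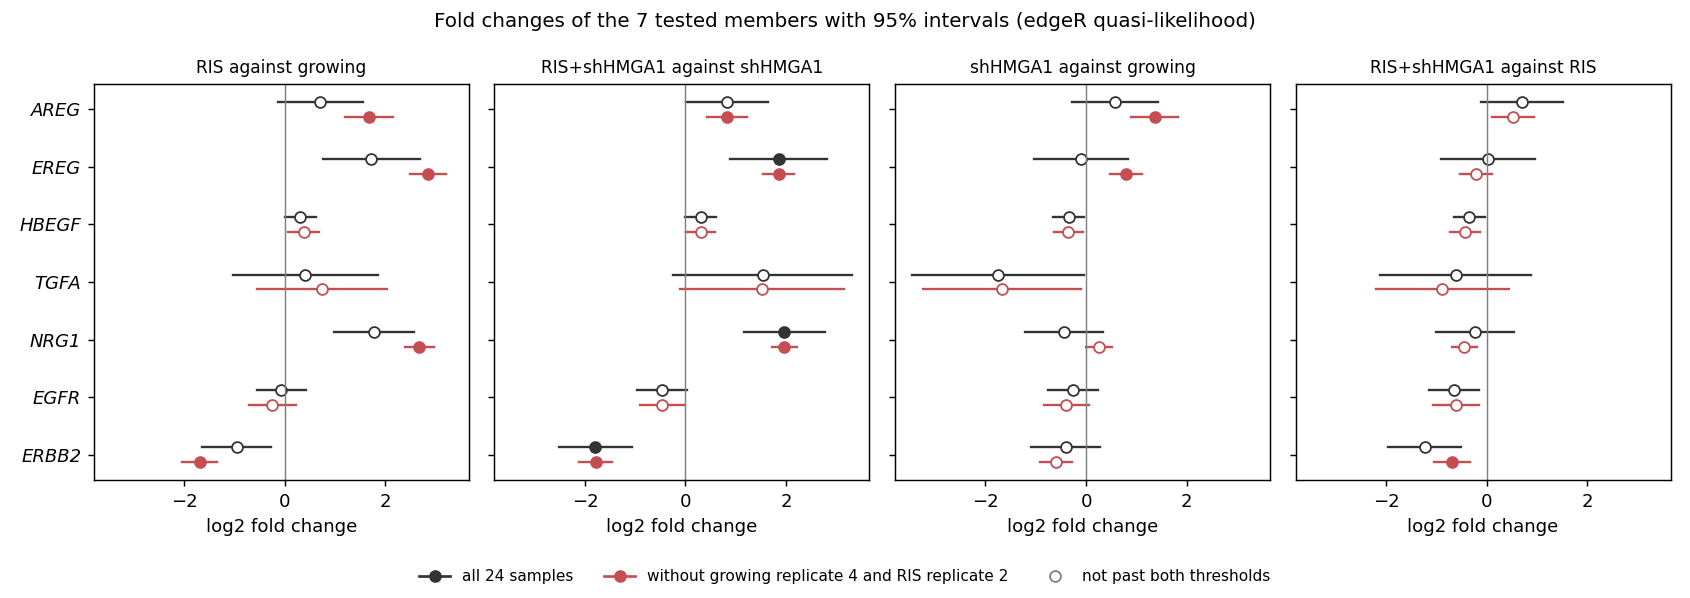
Log2 fold changes (horizontal axes, with 95% intervals) of the 7 tested members in the 4 comparisons. Dark points are fits of all 24 samples and red points fits without growing replicate 4 and RIS replicate 2, and filled points passed both thresholds. In RIS+shHMGA1 against shHMGA1 *EREG*, *NRG1* and *ERBB2* passed in both fits, while in RIS against growing 0 members passed with all samples.

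The third comparison set shHMGA1 against growing cells and asked what the hairpin changed without 4OHT. Of the 7 members 0 were called, beside 0.27% of all genes tested, and DESeq2 called 0 as well. The groups overlapped in 7 of 7 members, where 1.3% of all genes tested had groups that did not. Unadjusted p-values under 0.05 were found for 13.2% of all genes tested and for 2 members, *HBEGF* at -0.34 (SE 0.15, adjusted p = 0.322 in edgeR) and *TGFA* at -1.75 (SE 0.83, adjusted p = 0.365). *AREG* had 0.58, *EREG* -0.10, *NRG1* -0.43, *EGFR* -0.26 and *ERBB2* -0.40. Growing replicate 4 is in the control group here. Without it and RIS replicate 2, *AREG* rose by 1.36 (SE 0.23, adjusted p = 0.000528 in edgeR) and *EREG* by 0.79 (SE 0.16, adjusted p = 0.00288), 2 of 7 members beside 2.59% of all genes tested. In the same fit *ERBB2* had -0.59 (SE 0.15, adjusted p = 0.0154), and *NRG1* 0.27 (adjusted p = 0.119). Leaving out growing replicate 4 alone gave 0 calls.

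In samples other than growing replicate 4, *AREG* averaged 1.78 ± 0.42 CPM (SD, n = 5) in growing and 4.55 ± 1.35 CPM (SD, n = 6) in shHMGA1 cells, and *EREG* 82.8 ± 27.3 CPM and 143 ± 16.3 CPM. For *AREG* these groups did not overlap. For *EREG* they did, since the highest growing sample (125 CPM) lay above the lowest shHMGA1 sample (115 CPM).

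The fourth comparison, RIS+shHMGA1 against RIS, asked what the hairpin changed in cells with active RAS. It shares its samples with the first and second comparisons, so the values stand side by side only. With all samples 0 of the 7 members were called, beside 2.55% of all genes tested, and 3 had an unadjusted p under 0.05, beside 49.8% of all genes tested. These were *ERBB2* at -1.23 (SE 0.35, adjusted p = 0.0171 in edgeR), *EGFR* at -0.65 (SE 0.24, adjusted p = 0.0397) and *HBEGF* at -0.35 (SE 0.15, adjusted p = 0.0674). DESeq2 called *ERBB2*, beside 11.8% of all genes tested. The groups overlapped in 7 of 7 members, where 13.2% of all genes tested had groups that did not. *AREG* (0.70), *EREG* (0.03), *NRG1* (-0.23) and *TGFA* (-0.62) had adjusted p-values of 0.157, 0.965, 0.626 and 0.502 in edgeR.

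Without the libraries that stood apart, *ERBB2* fell by 0.69 (SE 0.17, adjusted p = 0.00483 in edgeR), 1 of 7 members beside 12.5% of all genes tested. It averaged 12.4 ± 3.70 CPM (SD, n = 5) in RIS and 7.67 ± 1.72 CPM (SD, n = 6) in RIS+shHMGA1 cells. It was called as well when growing replicate 4 alone was left out, and was not when RIS replicate 2 alone was. *NRG1* had -0.44 (SE 0.12, adjusted p = 0.00839), which lies under the fold threshold, and *AREG* 0.52 (adjusted p = 0.0414), *HBEGF* -0.43 (adjusted p = 0.0222) and *EGFR* -0.61 (adjusted p = 0.0314).

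Whether the response to 4OHT differed between hairpin and vector cells was tested as an interaction. With all samples 0 of the 7 members were called, beside 0% of all genes tested. At an unadjusted p under 0.05, 0 members passed, beside 10.3% of all genes tested. DESeq2 also called 0 members, and its share over all genes is not given here. The difference in log2 fold change (hairpin minus vector) was 0.13 for *EREG* (95% interval -1.19 to 1.45), 0.20 for *NRG1* (-0.90 to 1.29), 0.12 for *AREG* (-1.06 to 1.31) and -0.83 for *ERBB2* (-1.82 to 0.16). Without the libraries that stood apart it was -0.99 for *EREG* (-1.45 to -0.54, adjusted p = 0.106 in edgeR), -0.71 for *NRG1* (-1.07 to -0.34, adjusted p = 0.213), -0.84 for *AREG* (-1.46 to -0.22, adjusted p = 0.972) and -0.10 for *ERBB2* (-0.57 to 0.38). None of these passed the threshold, and 0.00745% of all genes tested did.

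The summed CPM of the 10 fibroblast markers moved with 4OHT in the same samples. It ran from 14332 to 20307 in shHMGA1 and from 4691 to 6072 in RIS+shHMGA1 samples, and was lowest among growing samples in replicate 4 (5321) and highest among RIS samples in replicate 2 (26953). The 4 endothelial markers, mostly *TEK*, summed to 70.2 to 124 CPM in shHMGA1 and 15.2 to 22.6 CPM in RIS+shHMGA1 samples, and were again lowest among growing samples in replicate 4 (14.7 CPM) and highest among RIS samples in replicate 2 (98.1 CPM). The 8 epithelial markers summed to 3.11 to 8.24 CPM in shHMGA1, 1.61 to 3.44 CPM in RIS+shHMGA1, 1.67 to 7.83 CPM in growing and 1.55 to 3.82 CPM in RIS samples. The share of counts held by the 10 most abundant genes ranged from 6.02 to 22.4%. The part of these shifts in the values of the members was not tested, and in such bulk samples fewer cells of a type and less RNA per cell cannot be told apart.

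Of the other 6 genes of the family, only *EGF*, the founding ligand, passed the filter. It had 16 to 27 reads in shHMGA1 and 0 to 5 reads in RIS+shHMGA1 samples, 3 of which had 0, and it fell in that comparison with a log2 fold change of -3.27 (SE 0.79, adjusted p = 0.00162 in edgeR). In growing samples other than replicate 4 it had 23 to 52 reads, and in RIS samples other than replicate 2 it had 0 to 5. *EPGN*, which encodes epigen, had at most 16 reads, with 6 to 16 in RIS+shHMGA1, 0 to 12 in RIS, 0 to 4 in growing and 0 to 4 in shHMGA1 samples. *NRG2*, *NRG3*, *NRG4* and the receptor *ERBB4* had at most 3, 1, 4 and 2 reads in a sample.

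Genes of ligand shedding and maturation, all 13 tested, included 1 that rose and 5 that fell in RIS+shHMGA1 against shHMGA1. Over all genes tested, 19.6% rose and 19.5% fell. The median log2 fold change of the list was -0.24, beside -0.02 over all genes tested. *TIMP3*, an inhibitor of the sheddase ADAM17, fell by 2.17 (SE 0.51, adjusted p = 0.00138 in edgeR) and had 261 to 333 CPM in shHMGA1 and 39.3 to 122 CPM in RIS+shHMGA1 samples. *ADAM19*, a metalloprotease of the same class, fell by 2.10 (SE 0.39, adjusted p = 0.000299). *SPINT1*, a serine protease inhibitor, rose by 1.44 (SE 0.44, adjusted p = 0.00723) at low levels, from 0.397 ± 0.166 to 1.12 ± 0.367 CPM (SD, n = 6 each). In RIS+shHMGA1 against RIS, where 2.55% of all genes tested were called, 2 of the 13 fell, *ADAM19* by 1.73 and *RHBDF2*, an adaptor of ADAM17 named after its value was seen, by 0.66.

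Of 27 tested genes of receptor adaptors and signalling, 1 rose and 7 fell in hairpin cells with 4OHT (median -0.35, beside -0.02 over all genes tested, of which 39.1% were called). *EPS8*, an EGFR substrate, fell by 1.37 (SE 0.25, adjusted p = 0.000311 in edgeR), the transcription factor gene *STAT5A* by 0.91 (SE 0.27, adjusted p = 0.00662) and the docking protein gene *GAB2* by 0.86 (SE 0.24, adjusted p = 0.0049). The mean of *EPS8* was 47.7 ± 10.3 CPM in shHMGA1 and 18.5 ± 3.12 CPM in RIS+shHMGA1 cells (SD, 6 samples each). In RIS+shHMGA1 against RIS only *STAT3*, a transcription factor named after its value was seen, passed, and fell by 0.72.

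Of 25 tested genes of receptor attenuation and traffic, 3 rose and 3 fell (median 0.10, beside -0.02 over all genes tested, of which 39.1% were called). *ERRFI1*, which encodes the EGFR inhibitor MIG6, rose by 2.16 (SE 0.38, adjusted p = 0.000268 in edgeR), from 121 to 140 CPM in shHMGA1 to 406 to 747 CPM in RIS+shHMGA1 samples. *SOCS3*, an inhibitor of cytokine receptor signalling, rose by 1.67 (SE 0.33, adjusted p = 0.000432), and *SOCS5*, which is known to promote EGFR degradation, fell by 1.11 (SE 0.21, adjusted p = 0.00034). Of 6 tested membrane partners of the ligands and receptors, 1 rose and 3 fell (median -0.385), against the same shares over all genes. *MUC1*, a membrane mucin, fell by 2.70 (SE 0.67, adjusted p = 0.00199), *CD44*, a proteoglycan that can carry HB-EGF, fell by 0.85 (SE 0.22, adjusted p = 0.00288), and *CD9*, a tetraspanin that associates with the HB-EGF precursor, rose by 1.07 (SE 0.30, adjusted p = 0.00444).

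**Figure D4:**
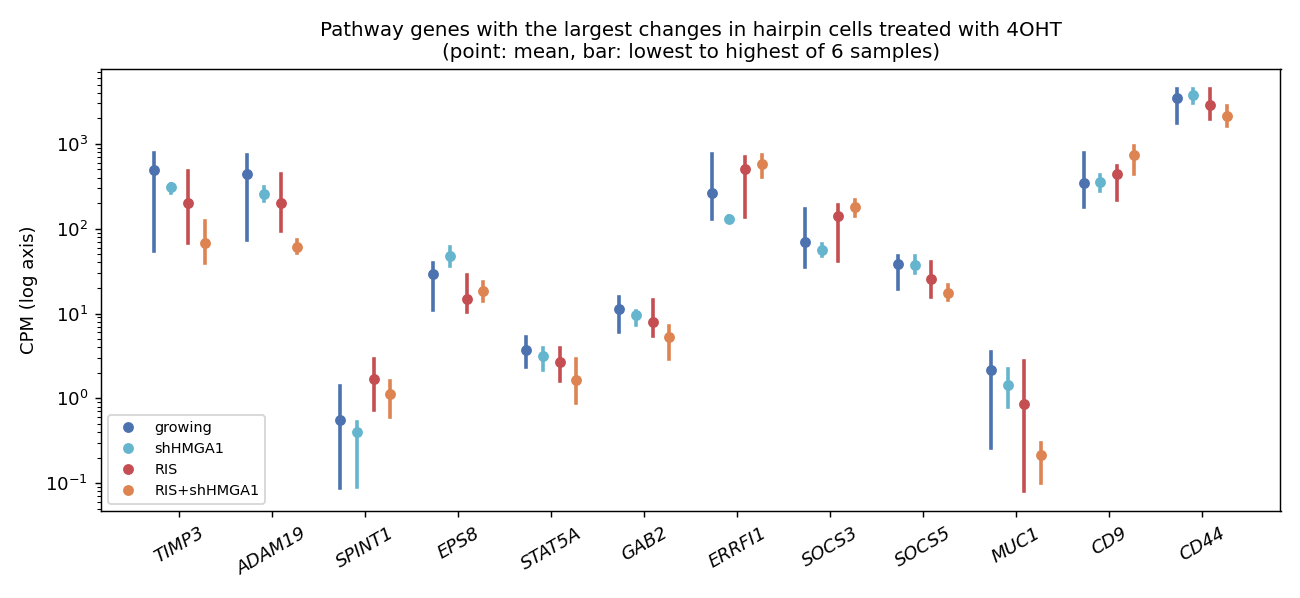
CPM (vertical log axis) of 12 pathway genes in the 4 groups, the 3 with the largest changes of each list in RIS+shHMGA1 against shHMGA1. Points are means and bars run from the lowest to the highest of 6 samples. The means of *TIMP3*, *ADAM19* and *MUC1* are lowest and those of *ERRFI1* and *SOCS3* highest in RIS+shHMGA1 cells. Except for *ADAM19*, these genes overlap between RIS and RIS+shHMGA1 samples, and the highest single *ERRFI1* value is in a growing sample.

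In RIS against growing, 0 genes of these lists were called with all samples. Without growing replicate 4 and RIS replicate 2, 1 of 13 shedding genes rose and 4 fell, 2 of 27 adaptors rose and 6 fell, 4 of 25 attenuation genes rose and 4 fell, and 2 of 6 partners rose and 1 fell, beside 39.7% of all genes tested that were called. In shHMGA1 against growing 0 genes of these lists were called with all samples, and without both libraries 3 of 13 shedding genes and 1 of 25 attenuation genes fell, beside 2.59% of all genes tested. In RIS+shHMGA1 against RIS without both libraries, 3 shedding genes fell, 1 adaptor rose and 2 fell, 1 attenuation gene fell and 0 partners were called, beside 12.5% of all genes tested.

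The genes whose log2 CPM correlated best with a member over the 24 samples were *PHLDA1* (Pearson's r = 0.98), *SECISBP2* (0.98) and *LIF* (0.98) for *EREG*, and *VEGFA* and *IRAK2* (0.99 each) for *NRG1*. For *ERBB2* they were *SDC3* (0.986), *CREB3L1* and *MPRIP* (0.985 each), and for *EGFR* they were *PRRC2C* (0.959), *DOCK5* (0.955) and *LRP8* (0.952). For *AREG* they were *PLA2G4A* (0.93), *GNG11* (0.93) and *RGS17* (0.92), for *HBEGF* *ICAM1*, *SLC20A1* and *UTP3* (0.89 to 0.90), and for *TGFA* *ATP13A3*, *PWWP2A* and *DKC1* (0.84 to 0.86). Between members, *EREG* and *NRG1* had r = 0.958 (0.945 for deviations from group means), and *EREG* and *ERBB2* r = -0.918 (-0.88). Growing replicate 4 and RIS replicate 2 are among the 24 points, which share library and depth, and these values are descriptions.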

How the data were processed

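The 24 samples were grouped by their titles. The authors mapped reads to hg19 with STAR 2.5.0b after trimming with cutadapt 1.10.0, removed reads of low mapping quality and counted reads per gene with Rsubread, and deposited raw counts per Entrez identifier, without normalisation. The annotation, strand setting and Rsubread version are not given in the sources used here. Symbols came from a RefSeq table (23696 of 25702 identifiers matched).

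Counts were filtered with filterByExpr by group, normalised by TMM and fitted as 4 group means with edgeR 4.0.16 (limma 3.58.1, R 4.3.3) and its quasi-likelihood test, adjusted by Benjamini-Hochberg over 13356 genes. Standard errors and 95% intervals follow from the F statistic; log2 CPM used a prior of 2 counts. P-values measure the spread between cultures labelled as biological replicates. Members and lists were chosen with earlier results of these data known. Named were the members, the rest of the ligand family and the 3 largest called changes of each other list in RIS+shHMGA1 against shHMGA1. Also named were the 3 genes most like each member and, as checks, *HMGA1*, *IL1A*, *IL6*, *CXCL8*, *MKI67*, *CCNB1* and *TOP2A*. The script, tested on simulated counts for RIS+shHMGA1 against shHMGA1 (13228 genes), recovered 92.5% of 200 changed genes with 2 false calls. The simulated counts had a single spread for all genes and no libraries that stood apart, and only well-counted genes were changed. This recovery checks the script and does not measure the power in the real data. The lowest chi-square per degree of freedom between replicates was 2.89 (60 pairs), so all 24 were kept as separate samples. Promoters are RefSeq windows of GRCh38.p14, and GRCh37 positions come from GENCODE.

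Alternatives were DESeq2 1.42.0, RLE normalisation, no filter, at least 1 CPM in 6 samples, the replicate block, only the samples compared, an FDR of 0.05 and each replicate number left out. Leaving out growing replicate 4, RIS replicate 2 or both, and limma's voom with sample weights, were added after the data were seen.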

Additional observations from a re-analysis of the deposited data

Results flagged for a closer look

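Within groups of 6, the gap between an extreme sample and its nearest neighbour, as a share of the whole range (Dixon's ratio), was above the 95% critical value in 9 of 28 tests of a member in a group. Chance flags about 1 in 20 groups, and members are not independent of each other. Growing replicate 4 was the highest in *AREG* (10.4 against a next value of 2.35 CPM, ratio 0.877), *EREG* (511 against 125 CPM, ratio 0.845) and *NRG1* (333 against 89.4 CPM, ratio 0.889). RIS replicate 2 was the lowest in *EREG* (71.5 against 514 CPM, ratio 0.663) and *NRG1* (88.3 against 397 CPM, ratio 0.665) and the highest in *ERBB2* (46.6 against 18.5 CPM, ratio 0.763). RIS+shHMGA1 replicate 5 was the highest in *EREG* (629 against 520 CPM, ratio 0.683), *NRG1* (414 against 326 CPM, ratio 0.770) and *EGFR* (118 against 73.9 CPM, ratio 0.701).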

How the results depend on the processing

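The 7 tested members gave 586 values under alternatives, of which 505 kept their direction and their side of the thresholds, 40 passed them newly, 2 no longer did and 39 changed sign. The numbers of members called were as follows. In RIS against growing (0 with all samples), DESeq2 and an FDR of 0.05 gave 2 each, and sample weights 4. Leaving out both libraries that stood apart gave 4, beside 39.7% of all genes tested, and leaving out single libraries or replicate numbers 0 to 4. In shHMGA1 against growing (0), leaving out both gave 2, beside 2.59% of all genes tested, and sample weights 3. In RIS+shHMGA1 against RIS (0), DESeq2 gave 1, an FDR of 0.05 gave 2 and sample weights 1. Leaving out both gave 1, beside 12.5% of all genes tested, and leaving out single libraries or numbers 0 to 1. In RIS+shHMGA1 against shHMGA1 (3), leaving out single libraries or numbers gave 2 to 4. Where no share of all genes stands beside a number, it is not given here, and such a number does not set the members apart from all genes. Over all genes, DESeq2 called 829 in RIS against growing (0 in edgeR), 99 in shHMGA1 against growing (36) and 1573 in RIS+shHMGA1 against RIS (341). The cause of these shifts was not tested.

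Some log2 fold changes turned sign. For the interaction, *HBEGF* was 0.0077 with DESeq2 and 0.0079 with RLE normalisation. For RIS+shHMGA1 against RIS, *EREG* was -0.0028 with only the samples compared, -0.20 without both libraries and -0.14 with sample weights. For shHMGA1 against growing, *EREG* was 0.79 without both and 0.92 with weights, and *NRG1* 0.27 and 0.29. For the interaction, *AREG* was -0.84 and -0.67, *EREG* -0.99 and -1.06 (adjusted p = 0.0249 from limma's voom) and *NRG1* -0.71 and -0.69. Leaving out single libraries or numbers gave -0.23 to 0.043 for *EGFR* in RIS against growing, -0.20 to 0.16 for *EREG* in RIS+shHMGA1 against RIS, -0.28 to 0.79 for *EREG* and -0.64 to 0.28 for *NRG1* in shHMGA1 against growing, and for the interaction -0.66 to 0.40 for *AREG*, -0.77 to 0.40 for *EREG*, -0.50 to 0.41 for *NRG1* and -0.16 to 0.11 for *HBEGF*.

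With the replicate number as a block, 0, 3, 0, 0 and 0 members were called in the 5 tests, as without it, while *EREG* became 0.28 in shHMGA1 against growing and -0.15 in the interaction. The block raised the genes called in RIS+shHMGA1 against RIS from 341 to 1637. The deviations of same-numbered samples correlated above 0.1 in 3 of 6 pairs for RIS against growing and 5 of 6 in each other comparison. Over all groups this was 24 of 36 same-numbered pairs (mean r 0.175) and 57 of 180 differently numbered ones (mean r -0.05), and 8 of 24 samples correlated best with their own number. The labels name no shared source and not every pair was above 0.1, so the main fit used no block. Same-numbered samples were still more alike on average than differently numbered ones, and the main p-values do not account for this. What the numbers share was not tested. Depth limits *TGFA*, *BTC* and *ERBB3*.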
